A study of Mus musculus with 8 samples.

Results

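The 37 genes described here encode subunits of the SWI/SNF, ISWI, INO80 and NuRD chromatin remodeling complexes, together with the related ATPases Smarcad1 and Smarcal1. They were chosen by name as remodeler subunits other than CHD proteins. A gene was taken from a probe set annotated with exactly 1 gene symbol, and from the brightest such probe set where there were several. By that rule 36 of the 37 members were found among the 22180 genes with such a probe set, and all 36 passed the filter on low values that left 17576 genes tested. Smarcd3 was left out, because its symbol occurred on a probe set that also carries Chpf2. The 36 measured members comprised 14 SWI/SNF genes, 7 ISWI genes, 3 genes of the INO80 family, 10 NuRD genes and the 2 further SNF2-type ATPases.

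The series measured total RNA from sorted bone marrow cells of C57/Bl6 mice aged 8 weeks on 8 single-colour microarrays, to learn where the remodeler Chd7 is expressed among blood stem and progenitor cells. Within the Lin- Sca1+ Kit+ gate, LT-HSC, the stem cells that sustain blood for the long term, were sorted as CD48- CD150+ CD34- (2 arrays, numbered 1 and 3). ST-HSC, which repopulate for a shorter time, were CD48- CD150+ CD34+ (3 arrays), and the multipotent progenitors called MPP were CD48+ CD150- CD34+ (3 arrays). All samples are described as untreated, yet a protocol attached to every sample describes a 2 hour exposure to DMSO, primary recipients kept for 1 year and secondary recipients kept for 3 months. Which of these histories applies to the cells was not settled here. The labels do not say that the arrays of a population came from separate animals, so the p-values below measure only the spread between these arrays, which may be technical.

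Chromatin remodelers are ATP-driven machines that slide, evict or exchange nucleosomes and so set which stretches of DNA are open. SWI/SNF complexes open regulatory DNA and run on either Smarca4 (Brg1) or Smarca2 (Brm), ISWI complexes space nucleosomes through Smarca5 (Snf2h) or Smarca1 (Snf2l), the INO80 family exchanges histone variants, and NuRD couples remodeling to histone deacetylation. In the mouse, blood formation is known to depend on several of these genes, among them Smarca5 in early progenitors and Smarcd2 in granulocyte maturation.

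Values are log2 signals after RMA, a method that summarises the probes of a probe set, and all fold changes are ratios on that compressed scale. Differences are given with the standard error (SE) from limma, a linear model with a spread shared by all populations, and a gene was called at a Benjamini-Hochberg adjusted p under 0.05 over all 17576 genes. The sort markers were read first. Slamf1, which encodes CD150, averaged 5.06 ± 0.36 in MPP (SD, n = 3) and 7.77 ± 0.01 in LT-HSC (SD, n = 2), as the gate requires. Cd48, whose product only the MPP gate includes, read 5.92 and 6.63 in LT-HSC, 7.49, 6.51 and 6.57 in ST-HSC, and 7.84, 6.65 and 6.96 in MPP. ST-HSC replicate 1 thus exceeded MPP replicates 2 and 3, and LT-HSC replicate 3 was nearly level with MPP replicate 2, so that Cd48 RNA did not separate the gates. Cd34, whose product the LT-HSC gate excludes from the surface, read 8.50 and 10.20 in LT-HSC replicates 1 and 3, 9.55 to 10.15 in ST-HSC and 10.85 to 11.00 in MPP. LT-HSC replicate 3 thus stood above every ST-HSC array for Cd34 RNA. Flt3, a receptor of early progenitors, read 5.84 and 8.49 in the LT-HSC arrays, 6.86 to 7.19 in ST-HSC and 9.43 to 9.80 in MPP, and LT-HSC replicate 3 again stood above every ST-HSC array. Kit read 9.84 to 10.45 over the 8 arrays. Procr, listed with these markers, read 8.25 and 8.80 in LT-HSC, 7.24, 7.85 and 7.68 in ST-HSC, and 7.96, 8.23 and 8.30 in MPP. Every MPP array thus exceeded every ST-HSC array for Procr.

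The LT-HSC pair also stood apart in other ways that touch every comparison with LT-HSC. LT-HSC replicate 1 had the narrowest distribution, with an interquartile range of 2.49 against 2.73 to 3.06 in the other arrays, and the lowest median correlation with the rest, 0.956. A list of 10 granulocyte and monocyte genes averaged 8.31 in LT-HSC replicate 1 and 6.04 in LT-HSC replicate 3. Its average was 8.69, 6.75 and 6.50 across ST-HSC and 8.07, 6.94 and 7.10 across MPP, and 9 of its 10 genes were highest in replicate 1 of each population. The B cell list averaged 4.70 to 5.15 and the T and NK cell list 4.64 to 4.83 over the 8 arrays. The megakaryocyte list averaged 7.10 to 7.54 in LT-HSC, 7.98 to 8.73 in ST-HSC and 6.76 to 7.30 in MPP. The erythroid list averaged 6.19 to 7.64 over all arrays, and 4 of its 4 measured genes were highest in replicate 1 of each population. The stroma and endothelium list reached 7.34 in ST-HSC replicate 1 and lay at 5.70 to 6.33 elsewhere, with 4 of 8 genes highest in replicate 1 of each population. Replicate 1 had the highest mean of both lists in every population. The part of these lists in the results was not tested. In such bulk samples, fewer cells of a type and less RNA per cell cannot be told apart.

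No remodeler subunit passed the test in any comparison of the model over all 8 arrays. Of the 36 members, 0 were called between MPP and LT-HSC, where 0.125% of all genes were called, 0 between ST-HSC and LT-HSC, where 0.933% were, and 0 between MPP and ST-HSC, where 0.193% were. The F test over the 3 populations in limma also called 0 members, against 0.905% of genes. With the replicate number as a block, 267 genes were called between MPP and ST-HSC in place of 34, and again 0 members. That same-numbered arrays form pairs is not given by the sample titles. With array weights Arid1a passed between MPP and ST-HSC, in a setting that called 525 of all genes in place of 34. The setting without LT-HSC replicate 3 leaves 1 LT-HSC array, so its calls are not given here. At an unadjusted limma p under 0.05 there were 8 members between MPP and LT-HSC (10.6% of all genes), 7 between ST-HSC and LT-HSC (11.1%), 1 between MPP and ST-HSC (6.89%) and 5 by the F test (10.5%). The 95% interval of the difference lay within 1 log2 unit either side of 0 for 34 of 36 members between MPP and LT-HSC, for 34 between ST-HSC and LT-HSC and for 36 between MPP and ST-HSC. The same was true of 85%, 85.6% and 92.3% of all genes in these comparisons, in that order. Changes beyond 1 log2 unit thus lay outside this interval for nearly all subunits. The interval takes 1 spread for all populations, whereas the members' median SD was 0.31 in LT-HSC, 0.11 in ST-HSC and 0.15 in MPP. Against LT-HSC it may therefore be too narrow to exclude such changes. Smaller differences could not be settled with 2 LT-HSC arrays.

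**Figure D1:**
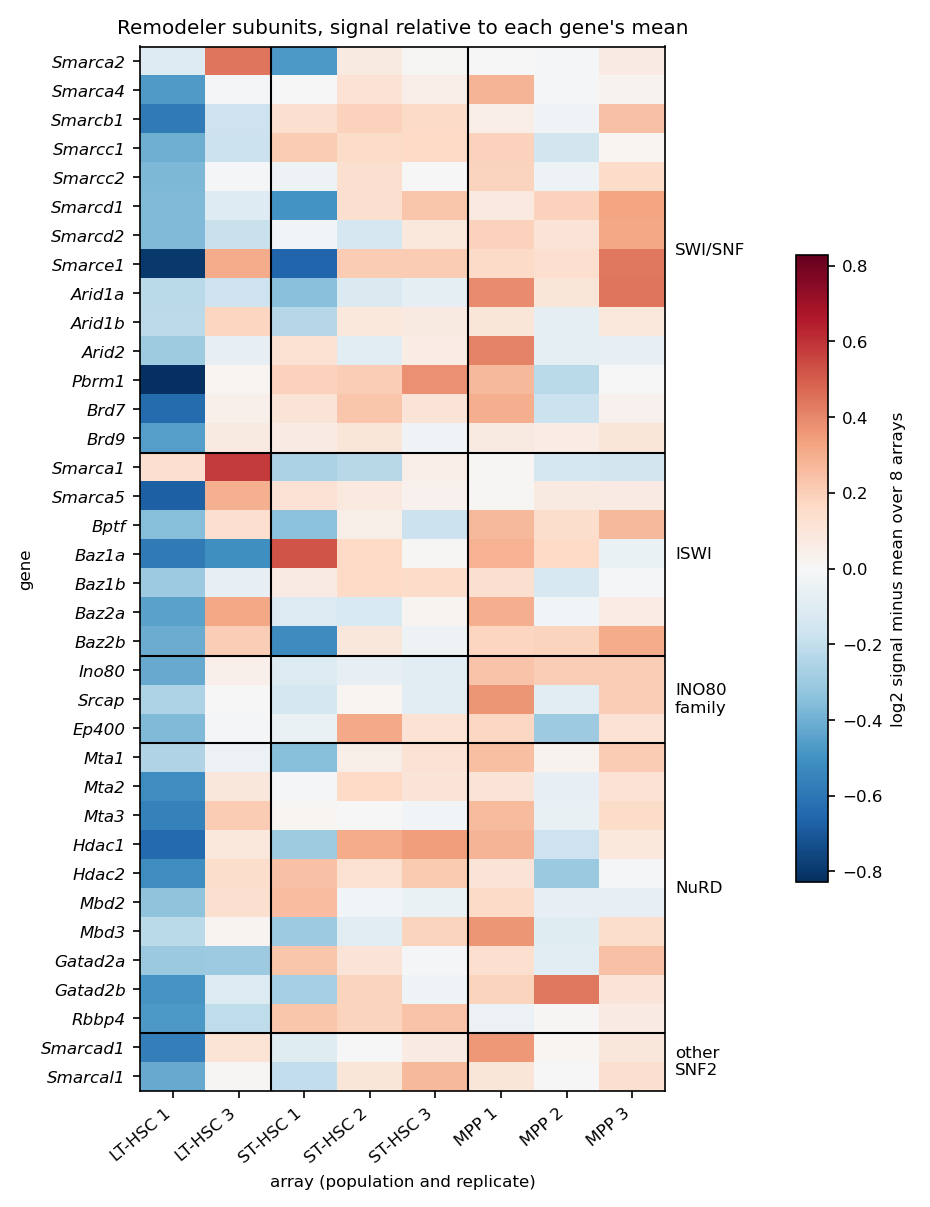
Signal of the 36 measured subunits (rows, grouped by complex) on the 8 arrays (columns), as log2 signal minus the gene's mean over all arrays. The LT-HSC replicate 1 column is the lowest for 28 of the 36 genes.

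Within their small range, the subunits differed mainly through 1 array. LT-HSC replicate 1 gave the lowest of the 8 values for 28 of 36 members, against 32.5% of all genes. ST-HSC replicate 1 gave the lowest for the other 8. The members are brighter than the typical gene: all but Smarca1 averaged 6.44 (Smarcd2) or more, against array medians of 4.95 to 5.22. The shares and medians of all genes given here and below are not matched for signal level. LT-HSC replicate 3 exceeded LT-HSC replicate 1 for 36 of 36 members, by a median of 0.43 log2 units and by up to 1.10 for Smarce1. Over all genes the median gap was 0.14 and 59.7% of genes were higher in replicate 3. The median of the members' relative levels was -0.41 in LT-HSC replicate 1 and 0.02 in LT-HSC replicate 3. It was -0.05, 0.10 and 0.06 across ST-HSC and 0.18, -0.02 and 0.11 across MPP. The other 7 arrays thus spanned less than the gap between the LT-HSC pair. The median within-population SD of the members was 0.31 in LT-HSC, 0.11 in ST-HSC and 0.15 in MPP, against 0.26, 0.18 and 0.16 over all genes in the same order.

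**Figure D2:**
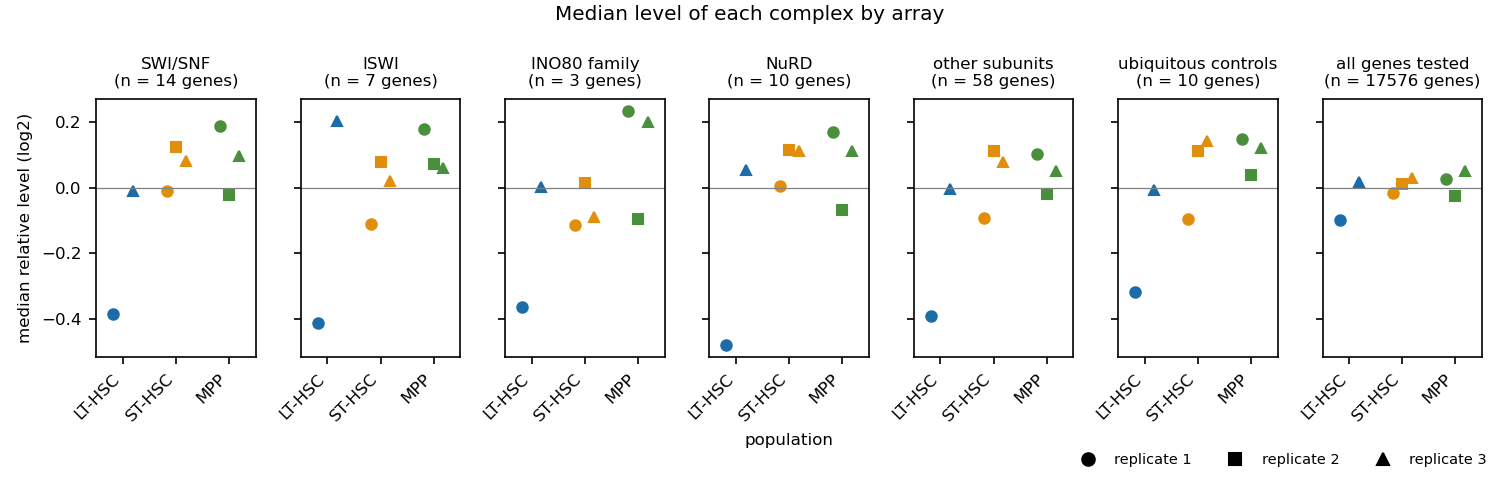
Median level of each complex relative to the genes' own means (log2), for each array by population. Further panels show other subunits of the same complexes together with further SNF2 ATPases (headed other subunits), ubiquitous control genes and all genes tested. LT-HSC replicate 1 (circle) lies between -0.48 and -0.36 in every remodeler panel and at -0.32 for the control genes.

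The members' median difference was 0.31 between MPP and LT-HSC, 0.23 between ST-HSC and LT-HSC and 0.05 between MPP and ST-HSC. The differences were above 0 for 34, 30 and 22 of the 36 members in these comparisons. They were above 0 for 57.2%, 52% and 51.7% of all genes, whose medians were 0.06, 0.02 and 0.01. With a filter at the 50th percentile, which keeps brighter genes, the medians of all genes were 0.17, 0.11 and 0.02. Those of the members were then 0.31, 0.24 and 0.06. The 10 measured ubiquitous control genes, such as Actb, Gapdh and Tbp, had medians of 0.35, 0.18 and 0.03, close to those of the remodelers. Without LT-HSC replicate 1 the members' median was 0.06 between MPP and LT-HSC, with 24 of 36 above 0, and 0.01 between ST-HSC and LT-HSC, with 18 of 36 above 0. Without LT-HSC replicate 3 the medians were 0.55 and 0.44. When the arrays were centred on the control genes, the members' medians were -0.08 between MPP and LT-HSC and -0.14 between ST-HSC and LT-HSC. The medians of all genes were then lower still, at -0.33 and -0.35. The first 2 comparisons share the LT-HSC arrays, so their likeness is not separate evidence.

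For 13 members every MPP array exceeded both LT-HSC arrays (14.1% of all genes), and for 1, Smarca1, every MPP array was below (10.5%). Between ST-HSC and LT-HSC, 10 members had every ST-HSC array above both LT-HSC arrays (13.8% of genes) and Smarca1 again had them below (9.5%). Between MPP and ST-HSC, 5 members were higher without overlap (7.75%) and 2 were lower (6.43%). These counts depended on the brighter LT-HSC array: LT-HSC replicate 1 alone lay below all MPP arrays for 35 of 36 members (45.5% of all genes). LT-HSC replicate 3 lay below them for 13 (24.3% of genes), within their range for 17 (51.1%) and above them for 6 (24.6%). The 17 within the range are 47.2% of the members, near the share of all genes.

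**Figure D3:**
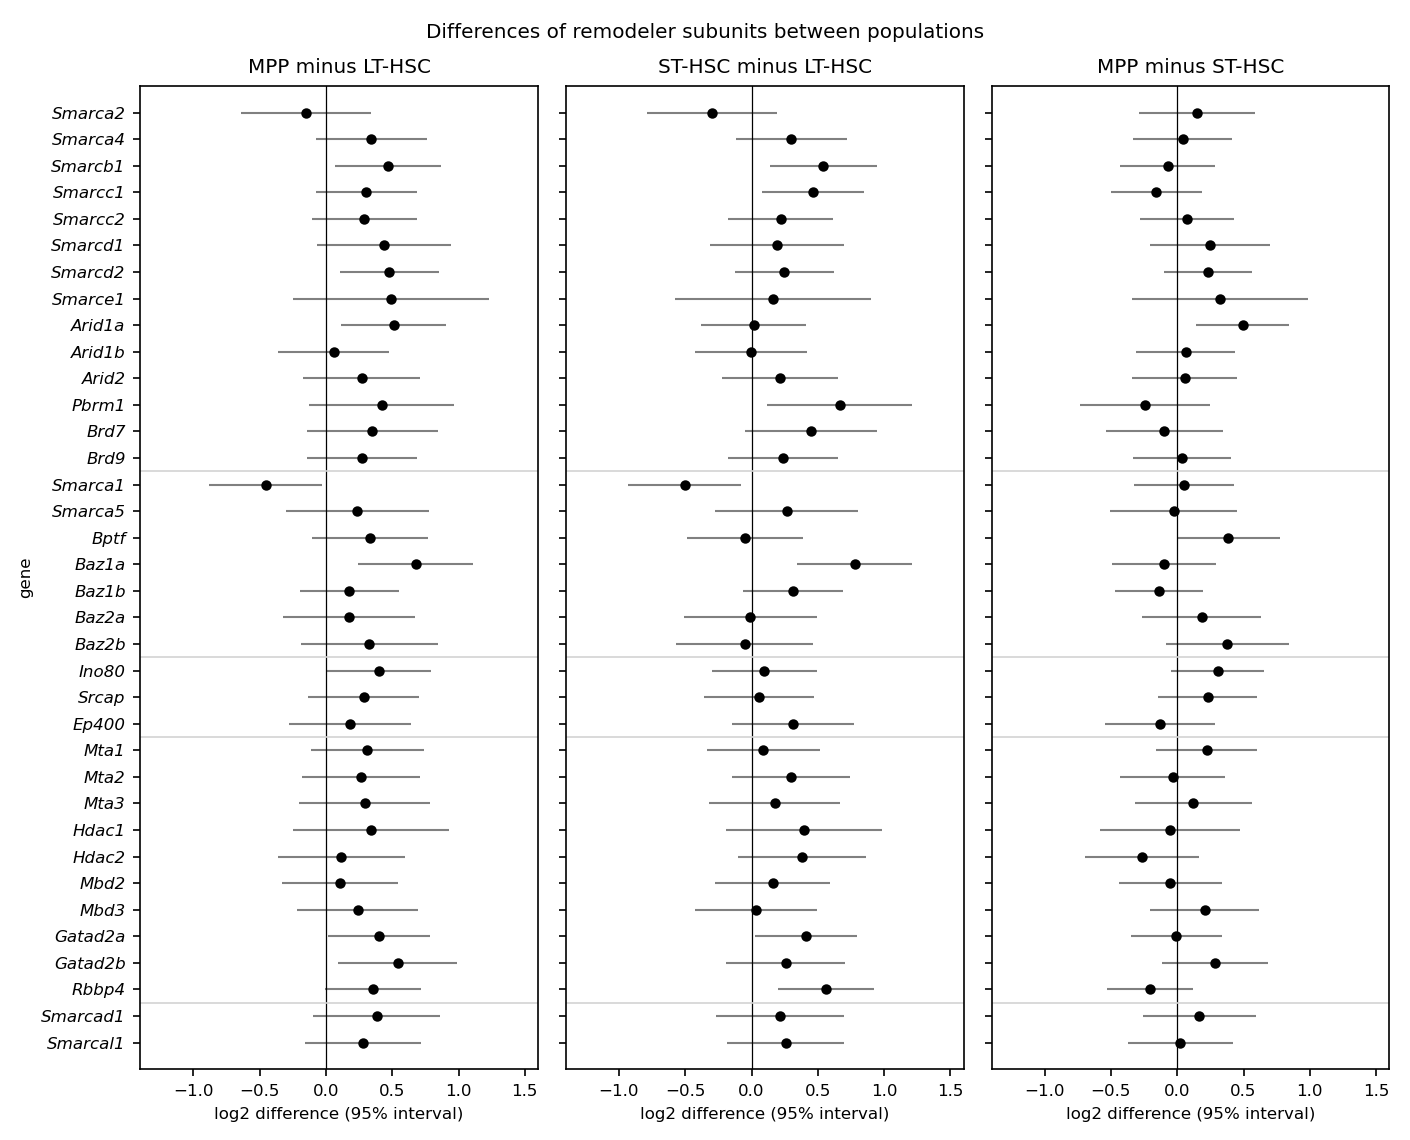
Log2 difference with its 95% interval for each of the 36 subunits between MPP and LT-HSC, ST-HSC and LT-HSC, and MPP and ST-HSC. Most intervals include 0, and the difference from LT-HSC is above 0 for 34 members in MPP and 30 in ST-HSC.

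The catalytic subunits are described first, since each SWI/SNF or ISWI complex holds 1 of a pair of alternative ATPases. Their upstream regions are shown because, in the within-array ratio of each of these 2 pairs, every ST-HSC and MPP array lay below both LT-HSC arrays. The sequences are the 200 bases upstream of the RefSeq start on GRCm38.p6, read 5′ to 3′ on the gene's strand, and capitals mark a CCAAT box on either strand. Smarca2 lies at chr19:26604960-26605159 (+), Smarca4 at chr9:21615969-21616168 (+), Smarca1 at chrX:47892614-47892813 (-) and Smarca5 at chr8:80739460-80739659 (-).
Smarca2: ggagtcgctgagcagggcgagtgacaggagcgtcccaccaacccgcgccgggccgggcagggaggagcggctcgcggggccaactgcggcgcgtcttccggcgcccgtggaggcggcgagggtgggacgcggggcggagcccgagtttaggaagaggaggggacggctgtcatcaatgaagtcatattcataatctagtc
Smarca4: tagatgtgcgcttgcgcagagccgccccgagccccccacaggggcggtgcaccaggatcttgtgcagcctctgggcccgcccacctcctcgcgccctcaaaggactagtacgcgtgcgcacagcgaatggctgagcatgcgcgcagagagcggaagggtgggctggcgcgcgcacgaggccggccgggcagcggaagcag
Smarca1: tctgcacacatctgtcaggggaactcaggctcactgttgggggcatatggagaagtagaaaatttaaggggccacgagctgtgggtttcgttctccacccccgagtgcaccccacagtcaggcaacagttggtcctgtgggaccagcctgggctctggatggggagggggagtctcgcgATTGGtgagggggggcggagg
Smarca5: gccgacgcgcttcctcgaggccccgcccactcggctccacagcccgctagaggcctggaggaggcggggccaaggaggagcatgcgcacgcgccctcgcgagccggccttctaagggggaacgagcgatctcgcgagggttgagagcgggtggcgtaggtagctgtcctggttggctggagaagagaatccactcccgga
These windows hold 23 CpG dinucleotides for Smarca2, 22 for Smarca4 and 21 for Smarca5, against 6 for Smarca1, which alone of the 4 holds a CCAAT box. Of all promoter windows in the table, 33.8% hold that motif in the 250 bases upstream of the start, so its presence is common.

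Smarca4 (Brg1), one of the alternative SWI/SNF motors, read 8.44 and 8.90 in LT-HSC, 8.91, 9.03 and 8.97 in ST-HSC, and 9.19, 8.90 and 8.94 in MPP. LT-HSC replicate 1 stood alone below the other 7 arrays, and LT-HSC replicate 3 touched the low end of the rest. The difference was 0.34 between MPP and LT-HSC (SE 0.19, limma adjusted p = 0.535) and 0.30 between ST-HSC and LT-HSC (SE 0.19, limma adjusted p = 0.594). Smarca2 (Brm), the other motor, read 9.09 and 9.65 in LT-HSC, 8.73, 9.28 and 9.21 in ST-HSC, and 9.20, 9.19 and 9.27 in MPP. Here LT-HSC replicate 3 was the highest array and ST-HSC replicate 1 the lowest, and the differences from LT-HSC were -0.15 for MPP and -0.30 for ST-HSC (limma adjusted p = 0.796 and 0.655).

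Because both genes are read on the same arrays, a shift common to all genes of an array cancels in their ratio. A change of scale, such as the narrow distribution of LT-HSC replicate 1, cancels only between genes of similar level. The log2 signal of Smarca2 minus that of Smarca4 was 0.65 and 0.75 in LT-HSC, -0.18, 0.25 and 0.24 in ST-HSC, and 0.01, 0.29 and 0.33 in MPP. All 6 ST-HSC and MPP arrays lay below both LT-HSC arrays, with mean shifts of -0.49 for MPP and -0.60 for ST-HSC. The LT-HSC arrays, which differed by 0.43 for the typical member, were close to each other in this ratio. After quantile normalization the shifts were -0.44 and -0.56, again without overlap. The level of the ratio itself reflects probe affinity and was not read, and the shift was not tested.

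Smarca5 (Snf2h), the ISWI motor of most dividing cells, read 8.14 and 9.11 in LT-HSC, 8.93, 8.89 and 8.85 in ST-HSC, and 8.82, 8.89 and 8.88 in MPP. The 6 ST-HSC and MPP arrays fell within a narrow band, and the LT-HSC pair lay on either side of it, nearly a log2 unit apart. Smarca1 (Snf2l), known best from neurons, was near the filter value of 3.88, with 4.05 and 4.49 in LT-HSC, 3.65, 3.69 and 3.97 in ST-HSC, and 3.92, 3.77 and 3.76 in MPP. It was the only member with all MPP and all ST-HSC arrays below both LT-HSC arrays, with differences of -0.46 in MPP (SE 0.19, limma adjusted p = 0.453) and -0.50 in ST-HSC (SE 0.19, limma adjusted p = 0.362). The ratio of Smarca1 to Smarca5 was lower by 0.69 in MPP and by 0.77 in ST-HSC than in LT-HSC, without overlap. After quantile normalization it was lower by 0.37 and 0.47. The groups then only just missed overlap, with -4.62 in LT-HSC replicate 1, -4.70 in ST-HSC replicate 3 and -4.72 in MPP replicate 1. The 2 genes differ widely in level, so a change of scale does not cancel in this ratio. Signal over background was not analysed here, and the Smarca1 means of 3.82 in MPP and 3.77 in ST-HSC lay under the filter value, which leaves the size of the Smarca1 differences uncertain.

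**Figure D4:**
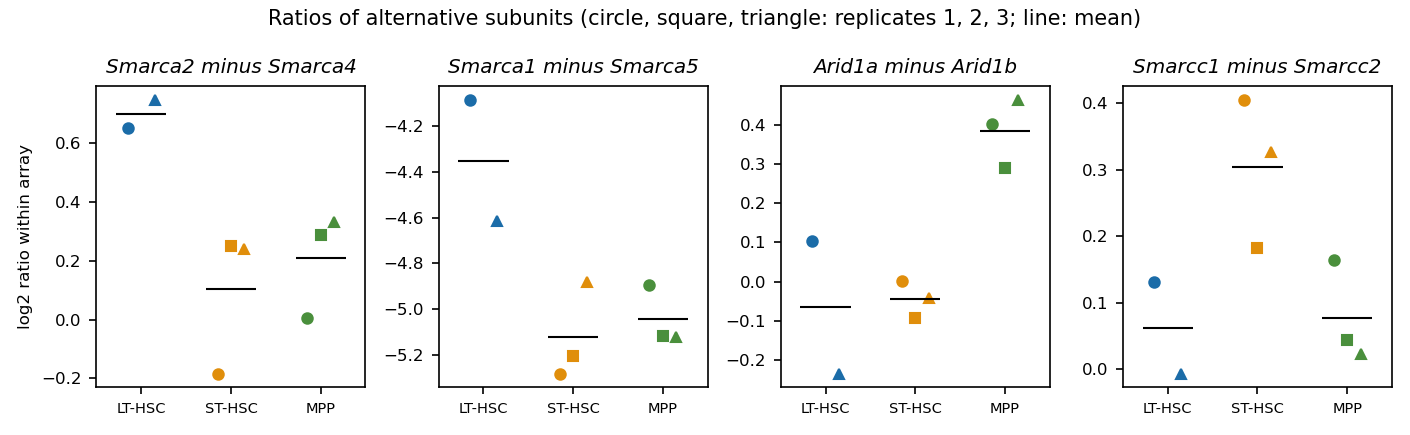
Log2 ratio within each array for Smarca2 over Smarca4, Smarca1 over Smarca5, Arid1a over Arid1b and Smarcc1 over Smarcc2, by population (points are arrays, lines are means). The first 2 ratios are lower in all ST-HSC and MPP arrays than in both LT-HSC arrays, and Arid1a over Arid1b is highest in the 3 MPP arrays.

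In all, 13 pairs of paralogs were set side by side in this way, and none of the ratios was tested. Without overlap, 2 ratios were higher and 2 lower in MPP than in LT-HSC. In ST-HSC against LT-HSC 1 was higher and 2 were lower, and in MPP against ST-HSC 3 were higher and 1 lower. The share of other gene pairs that separate in this way was not computed. Besides the ATPases, Smarcc1 over Smarcc2, a pair of scaffold subunits, was higher by 0.24 in ST-HSC than in LT-HSC and lower by 0.23 in MPP than in ST-HSC. Hdac1 over Hdac2, the deacetylases of NuRD, was higher by 0.23 in MPP than in LT-HSC. Mta1 over Mta2 was higher by 0.26 in MPP than in ST-HSC, and Arid1a over Arid2 by 0.44, both without overlap. The ratios of Mta1 to Mta3, Mbd2 to Mbd3 and Gatad2a to Gatad2b overlapped in every comparison.

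No SWI/SNF gene passed the test, and most were read slightly brighter outside LT-HSC. The median difference over the 14 SWI/SNF genes was 0.35 between MPP and LT-HSC, with 13 of 14 above 0, and 0.23 between ST-HSC and LT-HSC, with 12 of 14 above 0. Without LT-HSC replicate 1 these medians were 0.11 and 0.07. Between MPP and ST-HSC the median was 0.06. Smarcb1 (Snf5), a core subunit that anchors the complex to the nucleosome, read 8.01 and 8.42 in LT-HSC, 8.73, 8.79 and 8.75 in ST-HSC, and 8.65, 8.56 and 8.84 in MPP. The 6 ST-HSC and MPP arrays lay above both LT-HSC arrays, at 1.38-fold for MPP (limma adjusted p = 0.42) and 1.45-fold for ST-HSC (limma adjusted p = 0.292). Smarcc1, the scaffold also called Baf155, read 8.71 and 8.94 in LT-HSC, 9.32, 9.26 and 9.27 in ST-HSC, and 9.30, 8.96 and 9.13 in MPP. It too separated without overlap, by 0.46 between ST-HSC and LT-HSC (SE 0.17, limma adjusted p = 0.357). Its paralog Smarcc2 (Baf170) read 8.58 and 8.94 in LT-HSC, 8.91, 9.08 and 8.95 in ST-HSC, and 9.14, 8.91 and 9.10 in MPP, with overlap.

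Smarcd2 (Baf60b), known for its part in granulocyte maturation, was the only member whose 3 populations formed steps. It read 6.07 and 6.26 in LT-HSC, 6.41, 6.30 and 6.52 in ST-HSC, and 6.63, 6.55 and 6.76 in MPP. Each population lay above the one before it without overlap, and the difference between MPP and LT-HSC was 0.48 (SE 0.17, limma adjusted p = 0.373). The paralog Smarcd1 read 7.27 and 7.53 in LT-HSC, 7.14, 7.76 and 7.87 in ST-HSC, and 7.72, 7.83 and 7.96 in MPP. Its MPP arrays lay above both LT-HSC arrays, but on the dimmer second probe set of Smarcd1 they overlapped, with 6.49 and 7.45 in LT-HSC, 6.71, 8.15 and 7.29 in ST-HSC, and 7.15, 6.82 and 7.71 in MPP. Smarce1 (Baf57), a DNA-binding subunit, showed the widest spread of all members in LT-HSC, with 6.46 and 7.57, and also in ST-HSC, with 6.60, 7.47 and 7.47. Its MPP arrays read 7.41, 7.40 and 7.69, so that replicate 1 was the low array in both stem cell populations.

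The ARID subunits decide which kind of SWI/SNF complex forms. Arid1a (Baf250a), which marks the canonical BAF complex and is often mutated in cancer, read 8.61 and 8.67 in LT-HSC, 8.49, 8.72 and 8.76 in ST-HSC, and 9.23, 8.94 and 9.28 in MPP. The MPP arrays lay above all 5 stem cell arrays, and the LT-HSC pair was close together. The MPP values were 1.42-fold those of LT-HSC (difference 0.51, SE 0.18, limma adjusted p = 0.372) and 1.41-fold those of ST-HSC (difference 0.49, SE 0.16, limma adjusted p = 0.388). With arrays weighted by their estimated quality, the difference between MPP and ST-HSC gave a limma adjusted p of 0.0407, and over the 19 alternative settings it ranged from 0.41 to 0.60 with adjusted p from 0.0407 to 1. Arid1a was the 1 member with an unadjusted p under 0.05 between MPP and ST-HSC. Arid1b, its alternative in the same complex, read 8.51 and 8.90 in LT-HSC, 8.49, 8.81 and 8.80 in ST-HSC, and 8.83, 8.65 and 8.81 in MPP, with means within 0.06 of each other. The ratio of Arid1a to Arid1b was 0.10 and -0.24 in LT-HSC, 0.00, -0.09 and -0.04 in ST-HSC, and 0.40, 0.29 and 0.46 in MPP. It was higher by 0.45 in MPP than in LT-HSC and by 0.43 in MPP than in ST-HSC without overlap, and by 0.47 and 0.45 after quantile normalization.

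Arid1a has 2 RefSeq starts in the promoter table. The upstream window of the one at chr4:133753986-133754185 (-) is shown because it holds an E2F-type motif, TTTCCCGC, in capitals. An E2F-type motif, TTTCCCGC or TTTGGCGC on either strand, occurs in 3 of the 36 member promoters and 1.3% of all promoters.
Arid1a: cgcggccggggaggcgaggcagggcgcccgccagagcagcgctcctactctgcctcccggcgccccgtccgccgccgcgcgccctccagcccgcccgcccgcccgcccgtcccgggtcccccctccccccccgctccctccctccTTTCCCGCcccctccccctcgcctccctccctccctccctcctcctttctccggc

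Arid2, Pbrm1 and Brd7 belong to the PBAF form of the complex. Arid2 read 8.09 and 8.32 in LT-HSC, 8.51, 8.29 and 8.44 in ST-HSC, and 8.80, 8.30 and 8.32 in MPP, with overlap throughout. Pbrm1, a subunit with many bromodomains that bind acetylated histones, read 7.39 and 8.23 in LT-HSC, 8.41, 8.42 and 8.60 in ST-HSC, and 8.49, 7.99 and 8.21 in MPP. All ST-HSC arrays were above both LT-HSC arrays, by 0.66 (SE 0.25, limma adjusted p = 0.352), but LT-HSC replicate 3 lay close beneath them and within the MPP range. Without LT-HSC replicate 3, which leaves 1 LT-HSC array, the difference was 1.09, which rests on the low value in LT-HSC replicate 1. Brd7 read 7.45 and 8.13 in LT-HSC, 8.20, 8.32 and 8.20 in ST-HSC, and 8.39, 7.91 and 8.13 in MPP. Brd9, which marks the noncanonical SWI/SNF complex, held at 7.11 to 7.24 in the other 7 arrays and read 6.68 in LT-HSC replicate 1.

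**Figure D5:**
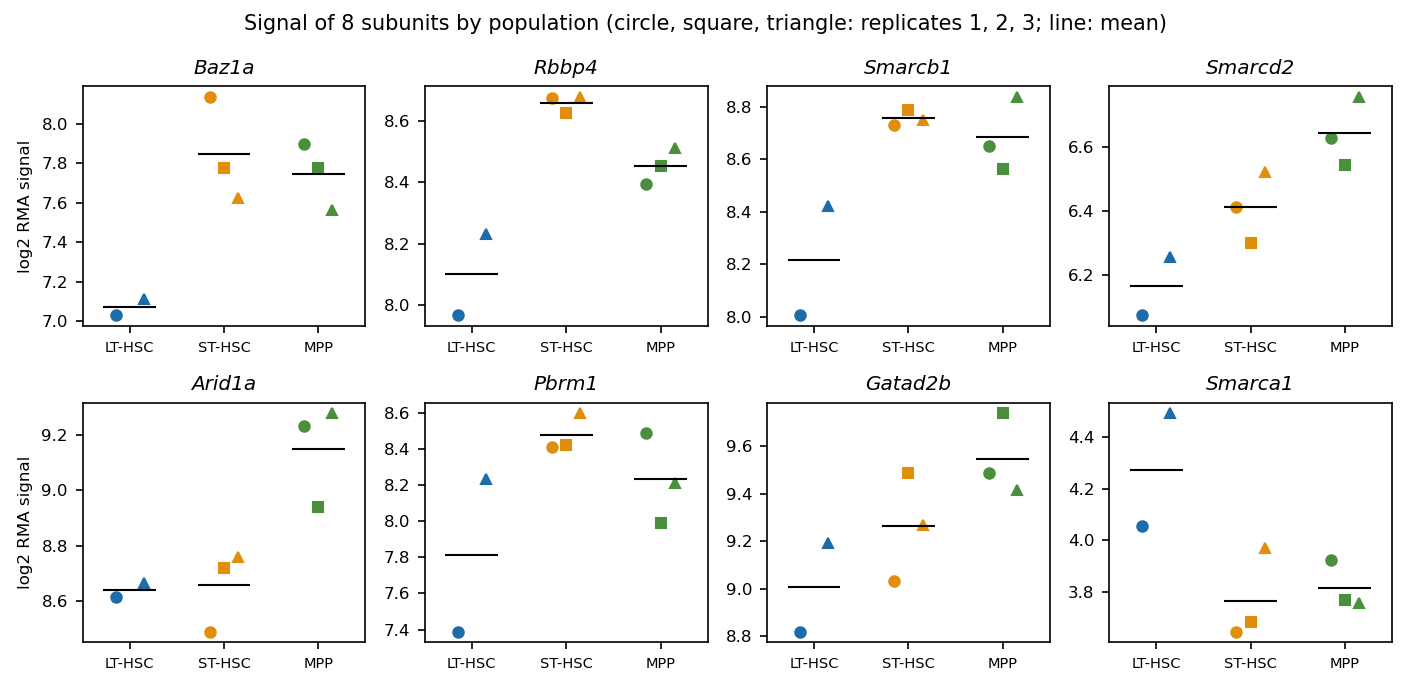
Log2 signal of Baz1a, Rbbp4, Smarcb1, Smarcd2, Arid1a, Pbrm1, Gatad2b and Smarca1 on each array by population (points are arrays, lines are means). Baz1a and Arid1a have LT-HSC arrays close together, whereas the Pbrm1 pair reads 7.39 and 8.23.

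The ISWI genes went no single way. Their median difference was 0.24 between MPP and LT-HSC, -0.01 between ST-HSC and LT-HSC and 0.05 between MPP and ST-HSC, and 6, 3 and 4 of the 7 were above 0. Without LT-HSC replicate 1 the median was 0.02 between MPP and LT-HSC and -0.30 between ST-HSC and LT-HSC. Baz1a (Acf1), the accessory subunit that helps Smarca5 space nucleosomes, had the largest difference of any member in both comparisons with LT-HSC. It read 7.03 and 7.11 in LT-HSC, 8.14, 7.78 and 7.63 in ST-HSC, and 7.90, 7.78 and 7.56 in MPP. The LT-HSC pair was close together, and all 6 other arrays lay clear above it. The MPP arrays averaged 1.6-fold the LT-HSC arrays (difference 0.68, SE 0.20, limma adjusted p = 0.276) and the ST-HSC arrays 1.71-fold (difference 0.78, SE 0.20, limma adjusted p = 0.131). Over the 19 alternative settings, the Baz1a difference stayed between 0.29 and 0.80 for MPP and between 0.41 and 0.89 for ST-HSC, and none gave an adjusted p below 0.0627. Without LT-HSC replicate 1 the differences were 0.64 and 0.74, so they did not rest on that array.

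Bptf, the histone-reading subunit of the NURF form of ISWI, read 7.92 and 8.40 in LT-HSC, 7.92, 8.31 and 8.09 in ST-HSC, and 8.53, 8.41 and 8.54 in MPP. Its MPP arrays exceeded all 5 stem cell arrays, by 0.33 over LT-HSC (limma adjusted p = 0.547) and 0.39 over ST-HSC (limma adjusted p = 0.739). Baz2b, which can pair with either ISWI motor, read 7.69 and 8.31 in LT-HSC, 7.58, 8.20 and 8.06 in ST-HSC, and 8.28, 8.29 and 8.41 in MPP, separated between MPP and ST-HSC by 0.38. Baz2a (Tip5), of the nucleolar NoRC complex, read 7.05 and 7.81 in LT-HSC, 7.38, 7.37 and 7.51 in ST-HSC, and 7.79, 7.47 and 7.55 in MPP. Baz1b (the Williams syndrome factor) read 8.73 and 8.96 in LT-HSC, 9.09, 9.19 and 9.18 in ST-HSC, and 9.16, 8.89 and 9.01 in MPP, with the ST-HSC arrays above both LT-HSC arrays by 0.31 (limma adjusted p = 0.529).

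None of the 3 ATPases of the INO80 family passed the test, with a median difference of 0.28 between MPP and LT-HSC, 0.10 between ST-HSC and LT-HSC and 0.23 between MPP and ST-HSC. Without LT-HSC replicate 1 the median was 0.16 between MPP and LT-HSC and -0.075 between ST-HSC and LT-HSC. Ino80 read 7.16 and 7.62 in LT-HSC, 7.46, 7.51 and 7.49 in ST-HSC, and 7.81, 7.78 and 7.78 in MPP. The MPP arrays were nearly equal and lay above all other arrays, by 0.40 over LT-HSC (SE 0.18, limma adjusted p = 0.464) and 0.30 over ST-HSC (SE 0.16, limma adjusted p = 0.842). Srcap, which deposits a histone variant at promoters, read 8.39 and 8.65 in LT-HSC, 8.50, 8.66 and 8.55 in ST-HSC, and 9.01, 8.55 and 8.85 in MPP. Ep400, the related motor of the Tip60 complex, read 8.24 and 8.60 in LT-HSC, 8.55, 8.92 and 8.73 in ST-HSC, and 8.78, 8.31 and 8.72 in MPP. A second Ep400 probe set read 8.39 and 8.50 in LT-HSC, 8.68, 8.51 and 8.50 in ST-HSC, and 8.75, 8.58 and 8.71 in MPP. The first probe set overlapped between MPP and LT-HSC and the second did not.

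No NuRD gene passed the test. The differences of all 10 were above 0 in both comparisons with LT-HSC, with a median of 0.30 between MPP and LT-HSC and 0.28 between ST-HSC and LT-HSC, and a median of -0.02 between MPP and ST-HSC. Without LT-HSC replicate 1 the first 2 medians were 0.05 and 0.01, with 5 of 10 above 0 in each. Rbbp4, the histone-binding subunit shared with other complexes, read 7.97 and 8.23 in LT-HSC, 8.67, 8.62 and 8.68 in ST-HSC, and 8.39, 8.45 and 8.51 in MPP. Its populations did not overlap: ST-HSC was highest, at 1.47-fold the LT-HSC mean (difference 0.56, SE 0.16, limma adjusted p = 0.201), and MPP lay between, at 0.867-fold the ST-HSC mean (limma adjusted p = 0.979). On a dimmer second Rbbp4 probe set the groups overlapped, with 7.08 and 7.66 in LT-HSC, 7.39, 7.70 and 7.70 in ST-HSC, and 7.54, 7.46 and 7.54 in MPP.

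Gatad2a and Gatad2b are alternative subunits that tie the methyl-DNA side of NuRD to its motor. Gatad2a read 7.55 and 7.56 in LT-HSC, 8.08, 7.96 and 7.84 in ST-HSC, and 8.00, 7.77 and 8.10 in MPP. Its LT-HSC arrays were the closest pair of any member, and both other populations lay above them, by 0.40 in MPP (SE 0.17, limma adjusted p = 0.459) and 0.41 in ST-HSC (SE 0.17, limma adjusted p = 0.423). Gatad2b read 8.82 and 9.19 in LT-HSC, 9.03, 9.49 and 9.27 in ST-HSC, and 9.49, 9.74 and 9.42 in MPP. It separated between MPP and LT-HSC, at 1.45-fold (difference 0.54, SE 0.20, limma adjusted p = 0.404), and overlapped elsewhere.

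The deacetylases and the MTA scaffolds were mostly lowest in LT-HSC replicate 1. Hdac1 read 8.32 and 9.05 in LT-HSC, 8.66, 9.26 and 9.31 in ST-HSC, and 9.24, 8.79 and 9.05 in MPP. Hdac2 read 8.88 and 9.54 in LT-HSC, 9.64, 9.52 and 9.61 in ST-HSC, and 9.50, 9.09 and 9.38 in MPP, and was lower without overlap in MPP than in ST-HSC, by 0.27 (SE 0.20, limma adjusted p = 0.984). Mta1 read 8.63 and 8.83 in LT-HSC, 8.53, 8.93 and 9.0 in ST-HSC, and 9.13, 8.91 and 9.09 in MPP, with every MPP array above both LT-HSC arrays. Mta2 read 8.09 and Mta3 6.59 in LT-HSC replicate 1, while Mta2 lay at 8.54 to 8.77 and Mta3 at 7.09 to 7.41 on the other 7 arrays. Of the methyl-binding subunits, Mbd2 read 7.41 and 7.87 in LT-HSC, 7.99, 7.72 and 7.69 in ST-HSC, and 7.89, 7.67 and 7.67 in MPP. Mbd3, which forms a separate NuRD complex, read 6.69 and 6.93 in LT-HSC, 6.61, 6.82 and 7.09 in ST-HSC, and 7.28, 6.81 and 7.05 in MPP. Neither separated any pair of populations.

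The remaining ATPases, Smarcad1 and Smarcal1, did not pass the test in any comparison. Smarcad1, known from human cells to act behind the replication fork, read 7.88 and 8.56 in LT-HSC, 8.34, 8.45 and 8.51 in ST-HSC, and 8.81, 8.46 and 8.54 in MPP. Smarcal1, which remodels stalled forks, read 6.76 and 7.18 in LT-HSC, 6.97, 7.27 and 7.44 in ST-HSC, and 7.27, 7.17 and 7.31 in MPP. LT-HSC replicate 1 was the lowest array for both genes.

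A further 64 genes of the same complexes and of the SNF2 family were listed as a comparison, of which 58 were tested. Their median differences were 0.26 between MPP and LT-HSC, 0.19 between ST-HSC and LT-HSC and 0.01 between MPP and ST-HSC, close to those of the members. In limma 0 passed between MPP and LT-HSC, 1 between ST-HSC and LT-HSC and 0 between MPP and ST-HSC, against 0.125%, 0.933% and 0.193% of all genes. At an unadjusted p under 0.05 there were 5, 11 and 6, against 10.6%, 11.1% and 6.89% of all genes in the same order. The gene that passed was Hells (Lsh), an SNF2 ATPase needed for DNA methylation and active in dividing cells. It read 6.67 and 6.91 in LT-HSC, 7.95, 8.10 and 7.81 in ST-HSC, and 7.55, 6.94 and 7.17 in MPP. The ST-HSC arrays lay above all others, at 2.23-fold the LT-HSC mean (difference 1.16, SE 0.21, limma adjusted p = 0.0263), and the call was lost in 11 of 19 alternative settings, among them those without LT-HSC replicate 1 or without any single ST-HSC array. Rad54l, a recombination motor, read 5.29 and 6.15 in LT-HSC, 7.03, 6.72 and 7.16 in ST-HSC, and 6.52, 5.99 and 6.40 in MPP, a difference of 1.25 between ST-HSC and LT-HSC (SE 0.27, limma adjusted p = 0.0624). Chd3, a NuRD motor, read 10.18 and 10.70 in LT-HSC, 10.42, 10.31 and 10.44 in ST-HSC, and 10.87, 11.13 and 11.09 in MPP, above ST-HSC by 0.64 (limma adjusted p = 0.231). Cdk2ap1, a small NuRD subunit, read 8.66 and 9.14 in LT-HSC, 9.60, 9.52 and 9.61 in ST-HSC, and 9.52, 9.36 and 9.68 in MPP. Nfrkb, an INO80 subunit, was 0.57 higher in MPP than in LT-HSC without overlap (limma adjusted p = 0.361), and Zfpm1 (Fog1), a NuRD partner in the red cell and platelet lineages, was 0.61 lower in MPP than in ST-HSC (limma adjusted p = 0.248).

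Promoter composition was not used in the choice of members. The RefSeq table held 36 promoters for 31 members. In the 250 bases upstream of the start, the member promoters had a median of 24.5 CpG dinucleotides and 67.4% G and C, against 6 and 52.4% over all 32851 promoters. The range among members was wide, with 4 CpG for Baz2b and for Smarcd2 and 40 for Smarcc2, and with 41.2% G and C for Baz2b, under the median of all promoters, and 81.6% for an Arid1a start. An E2F-type motif (TTTCCCGC or TTTGGCGC, either strand) occurred in 8.33% of member promoters, those of Arid1a, Brd7 and Smarcd1, against 1.3% of all promoters. Both forms hold a CpG, and the promoters were not matched for CpG content. A CCAAT box occurred in 27.8% against 33.8%, a TATA box (TATAAA) in 8.33% against 12.4% and an ETS motif (CCGGAAGT) in 2.78% against 2.88%, and a perfect NRF1 motif occurred in 0 of 36 against 0.782%. The further listed genes of the complexes and of the SNF2 family had 59 promoters. Their shares were 3.39% for E2F, 49.2% for CCAAT, 5.08% for TATA, 6.78% for ETS and 1.69% for NRF1. For CCAAT the members thus lay below all promoters and these genes above. These are matches of letters in a window, and nothing about binding was measured.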

How the data were processed

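Per the labels, total RNA was extracted with Trizol, amplified with the Ovation Pico WTA V2 kit and labelled with the Encore Biotin module, and amplification before labelling can add spread between arrays. Per the submitters' processing notes the authors used RMA, with version and annotation not given in the sources used here. Deposited were log2 values of 33649 probe sets on 8 arrays, running from 2.05 to 12.94, and the log2 scale was read from these values. Gene names came from the platform annotation: 23521 probe sets had 1 symbol, 1814 several and 8314 none, which gave 22180 genes, 1082 of them with more than 1 probe set. The filter kept genes with a mean of at least 3.88, the 25th percentile over probe sets. Samples were grouped by their titles, and LT-HSC replicate 2 was not analysed here. With so few arrays the precision is limited.

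One limma 3.58.1 model (R 4.3.3) held a mean per population over all 8 arrays, with 5 residual and 5.93 prior degrees of freedom. It was tested on simulated arrays with independent noise, equal in spread on every array, and with genes changed only in MPP. That simulation leaves out the unequal spread of the real arrays, so it does not cover the LT-HSC pair. Adjusted p-values are Benjamini-Hochberg values over 17576 genes. The same replicate number occurs in each population. The deviations of same-numbered MPP and ST-HSC arrays correlated weakly, at 0.149, 0.23 and 0.209. Deviations sum to 0 within a population, so these values are not independent. A possible pairing of these arrays was thus read from the data and not from the titles. The model reported did not use it, and its p-values take all arrays as independent. With LT-HSC there are only 2 shared numbers. Their correlations were 0.536 and 0.475 for ST-HSC and -0.159 and 0.0988 for MPP, and no pairing was assumed. The replicate number entered only in the replicate block setting, which covered LT-HSC as well. Members with values in every array were chosen by rank of unadjusted p in each comparison, by level within a complex and as paralogs, and other members were added for completeness. The members and all lists were chosen with earlier results of these data known. Normalization, filter, weights, covariates, the replicate block and each array were varied in turn. Promoter sequences came from RefSeq, build GRCm38.p6.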

Additional observations from a re-analysis of the deposited data

How the results depend on the processing

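Limits come first: 2 LT-HSC arrays that differ from each other, no raw signals over background, no label that ties arrays to animals, and values compressed by RMA. Over all alternatives 811 results were labelled the same, 99 moved, 10 crossed to an adjusted p under 0.05 and 11 lost a call, and no called result changed sign. The same label meant an unchanged call and direction for a gene, a median moved by less than the spread between arrays, or a count within a fixed ratio. Some results could not change, such as the median between MPP and LT-HSC without an ST-HSC array. Smarcb1 between MPP and LT-HSC, never called, ran from 0.08 to 0.68 and was the same in 19 of 19 settings. The tally therefore does not measure how stable the effect sizes are. The cause of each move was not tested, apart from the smaller number of arrays where 1 was left out.

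Among settings that kept both LT-HSC arrays, the count of members called in limma was 0, except 1 (Arid1a) between MPP and ST-HSC with array weights. That setting called 525 of all genes. Genes called between MPP and LT-HSC, 22 in the model reported, were 37 after quantile normalization, 5 after median centring, 9 with array weights, 47 with the interquartile range as a covariate, 157 with the replicate block and 98 when centred on control genes, and 6 to 615 when 1 array was left out. Between ST-HSC and LT-HSC, 164 genes became 104 after median centring, 100 with only these 2 groups, 61 with array weights, 473 with the replicate block, 80 when centred on control genes, 0 without replicate 1 of both groups, and 17 to 825 when 1 array was left out. Between MPP and ST-HSC, 34 became 1 after median centring, 71 with only these 2 groups, 525 with array weights, 197 with the covariate, 267 with the replicate block, 22 when centred on control genes, 78 without replicate 1 of LT-HSC and ST-HSC, and 1 to 71 when 1 array was left out. The replicate block left the members' calls at 0 in each comparison.

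Between ST-HSC and LT-HSC the count of other complex genes called, 1 in the model reported, was 0 after median centring, with only these 2 groups, with array weights, with the covariate, when centred on control genes and without replicate 1 of both groups, and 2 (Hells and Rad54l) with the filter at the 50th percentile or the replicate block. It ranged from 0 to 5 when 1 array was left out. Between MPP and LT-HSC it was 0 to 2 when 1 array was left out, and between MPP and ST-HSC it was 3 (Chd3, Zfpm1 and Hells) with array weights.

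Median differences between MPP and LT-HSC moved as follows. After quantile normalization they were 0.15 for all members, 0.17 for SWI/SNF and 0.10 for the INO80 family. With the covariate they were 0.094 for all members, 0.144 for SWI/SNF, 0.024 for ISWI and 0.035 for NuRD. Centred on control genes, a setting added after seeing the data, they were -0.077 for all members, -0.040 for SWI/SNF, -0.149 for ISWI, -0.102 for the INO80 family and -0.083 for NuRD, with the median of all genes at -0.33. Leaving out 1 array gave 0.064 to 0.548 for all members, 0.110 to 0.553 for SWI/SNF, 0.019 to 0.578 for ISWI, 0.155 to 0.412 for the INO80 family and 0.047 to 0.464 for NuRD, and the values without replicate 1 of both LT-HSC and ST-HSC equalled the lower ends for all members, SWI/SNF, ISWI and NuRD.

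Median differences between ST-HSC and LT-HSC were 0.061 for all members, -0.244 for ISWI and 0.085 for NuRD with the covariate. Centred on control genes they were -0.138 for all members and for SWI/SNF, -0.377 for ISWI, -0.270 for the INO80 family and -0.090 for NuRD, with the median of all genes at -0.35. Without replicate 1 of both groups the members' median was 0.061. Leaving out 1 array gave 0.011 to 0.436 for all members, 0.065 to 0.453 for SWI/SNF, -0.296 to 0.374 for ISWI, -0.075 to 0.325 for the INO80 family and 0.011 to 0.501 for NuRD. Median centring moved the median of all genes to 0.18 between MPP and LT-HSC and to 0.13 between ST-HSC and LT-HSC. Between MPP and ST-HSC the members' median ranged from 0.02 to 0.11 over all settings.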
